A study of Mus musculus with 24 samples.

Results

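The 4 blastocyst pools coded HC3 were compared with the 4 pools coded HC5, which are 8 of the 24 mouse pools of the series. The pools were taken by the code in their titles. The series has 6 codes, HC1 to HC6, with 4 pools each, and its title concerns bisphenol A, a plastics monomer, and activation of membrane estrogen receptors. Each HC3 and HC5 pool held 15 frozen expanded blastocysts, and 2 ng of total RNA from each was labelled with the dye Cy3 and hybridised to a one-colour Agilent array. The HC6 pools, which held 20 blastocysts each, are among the 16 other pools that enter the fit and serve as reference below. The labels used here do not say which treatment, dose, strain or embryo age a code stands for, nor which code is a control, so the signs below are HC3 minus HC5 and carry no treatment. They also do not say that the pools of a code came from separate animals, so p-values measure only the spread between pools. In a pool, fewer cells of a type and less RNA per cell cannot be told apart.

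The expanded blastocyst is the last stage before the mouse embryo hatches and implants. Its outer trophectoderm pumps fluid into the cavity, while the inner cell mass divides into epiblast, which forms the embryo, and primitive endoderm, which lines the cavity. Sterols are made in these cells by a chain of enzymes that builds isoprenoid units from acetyl-CoA, joins them into squalene, closes the rings to lanosterol and trims lanosterol to cholesterol. The genes of that chain are known to be switched on together by the sterol-sensing transcription factor SREBP2, encoded by Srebf2, which often acts with NF-Y, a factor that binds CCAAT letters.

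Defining genes of the 3 blastocyst lineages were well above background in all 8 pools. The normalised log2 signal used throughout is the log2 processed signal minus the 75th percentile of the array, so a value of 0 marks that percentile. Levels of different probes are not comparable with one another. Pou5f1, which keeps inner cells pluripotent, stood at 2.88, 3.06, 3.22 and 3.26 in HC3 pools, against 3.03, 2.95, 3.15 and 3.91 in HC5 pools. Cdx2, a trophectoderm factor, stood at 4.58, 4.42, 4.88 and 4.98 in HC3 pools, against 4.44, 4.82, 4.74 and 5.65 in HC5 pools. Gata6, a factor of the primitive endoderm, stood at 4.40, 4.58, 4.53 and 4.37 in HC3 pools, against 4.18, 4.40, 4.51 and 3.89 in HC5 pools. The groups overlapped for all 3 genes. HC5 replicate 4 was the highest pool for Pou5f1 and Cdx2 and the lowest for Gata6.

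HC5 replicate 4 stood apart from the other arrays. Its 75th percentile of the processed signal was 65.9, the lowest of the 24 arrays, and 39.1% of its spots were well above background. The share of spots well above background was 47.3%, 43.9%, 46.6% and 46.4% on the HC3 arrays, against 41.5%, 43.3%, 43.8% and 39.1% on the HC5 arrays. The 2 groups did not overlap (46.0% ± 1.5 in HC3 and 42.0% ± 2.1 in HC5, SD, n = 4 each, exact two-sided permutation test p = 0.0286, the smallest this design allows, adjusted p = 0.0571 over 2 array measures). The 75th percentile itself was 110, 88.0, 181 and 151 on the HC3 arrays, against 112, 116, 81.3 and 65.9 on the HC5 arrays, and the groups overlapped (exact permutation p = 0.171). More features were therefore near or under background in HC5, and the part of this in the differences of dim genes was not tested.

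Signals varied strongly with array position on the slide, and the cause of this was not tested. The arrays lay on 3 slides of 8, in 2 rows of 4 positions, and each slide was scanned once. With the condition means fitted, 1991 of 18457 genes differed between slide row 2 and slide row 1 (limma, Benjamini-Hochberg adjusted p under 0.05, percent called 10.8), and 0 genes differed among the 3 slides (percent called 0). The first principal component, with 19.1% of the variance, placed the 9 arrays at positions 2 to 4 of row 2 at 22.9 or above and the 15 arrays at the other 5 positions at -2.9 or below. HC3 and HC5 each had 2 arrays in each row. HC3 had 2 arrays in each of the zones, replicates 3 and 4 being in the row 2 zone. HC5 had only replicate 4 in the row 2 zone, and replicates 1, 2 and 3 elsewhere. The 5080 genes (27.5%) called between the zones are a description, since the zones were drawn after the component was seen.

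**Figure D1:**
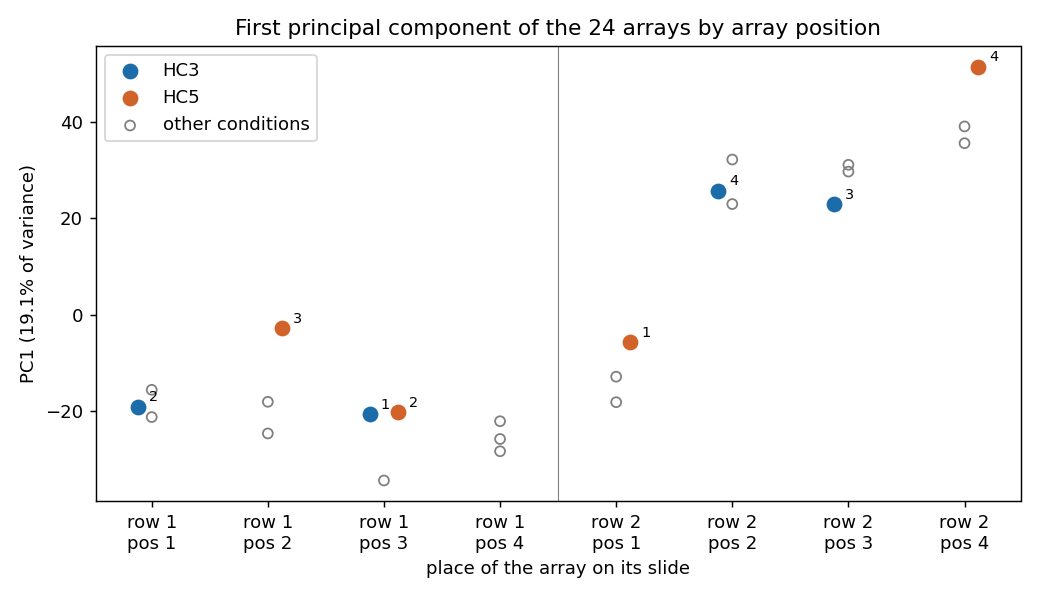
First principal component of the 24 arrays (y axis, 19.1% of variance) by place on the slide (x axis), with HC3 pools in blue, HC5 pools in orange, their replicate numbers beside them and the 16 other pools as open circles. The 9 arrays at positions 2 to 4 of row 2 lie at 22.9 or above and all others at -2.9 or below, and HC5 replicate 4 has the highest value, 51.5.

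No gene differed between HC3 and HC5 pools after adjustment for the number of genes tested. In a limma fit of all 24 arrays with 6 condition means, 0 of 18457 genes passed at an adjusted p under 0.05 (percent called 0), and the smallest adjusted p was 1.00. An unadjusted p under 0.05 was reached by 589 genes (3.19%), where chance alone gives 923. With the position zone as a block, chosen after seeing the data, 1452 genes reached it, and 684 did when HC5 replicate 4 was also left out. Of the 589, 353 had a higher mean in HC3 (1.91% of genes tested) and 236 a lower one (1.28%). Over all genes, 52.5% had a higher mean in HC3 and 47.5% a lower one. The median standard error of a difference was 0.19 log2, and 77.9% of all genes had a 95% interval inside a 2-fold change up or down, as did 94.8% of the 13545 genes well above background on all 8 arrays. In simulated arrays of 18150 genes with the same comparison, the fit recovered 64% of the genes given a 2-fold change and 28% of those given a 1.5-fold one. The simulated spread was independent between genes and arrays, with no shared position effect. These shares are therefore not the power of the real comparison. The 3 other normalisations tried and the authors' deposited log2 values also gave 0 called genes.

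Because nothing passed, single genes are given as values, chosen as the 12 of smallest p in each direction among genes well above background on all 8 arrays. Of that set, 1.23% had an unadjusted p under 0.05 with a higher mean in HC3 and 1.09% with a lower one. All had an adjusted p of 1.00. All 4 HC3 values lay above all 4 HC5 values in 81 of those 13545 genes (0.598%, and 0.818% of all genes tested) and below them in 75 (0.554%, and 0.688% of all genes tested).

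Fmr1, which encodes the RNA-binding protein lost in fragile X syndrome, had the smallest p among the genes of higher mean in HC3. It stood at 0.31, 0.13, 0.38 and 0.63 in HC3 pools, against 0.04, -0.28, -0.13 and -0.14 in HC5 pools. Every HC3 pool lay above every HC5 pool, and the difference was 0.49 ± 0.13 log2 (SE, limma, unadjusted p = 0.00096). The 3 kept Fmr1 probes agree in direction, and the difference was 0.43 within slide row 1, 0.55 within slide row 2 and 0.49 without HC5 replicate 4. The 16 other pools averaged 0.29 and spanned -0.02 to 0.60, so HC3 replicate 4 lay above all of them, HC5 replicate 1 within their range and the other 3 HC5 pools below it. The Fmr1 probe lies on chromosome X from 65948200 to 65948259 (mm9).

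Chd1, a chromatin remodeller needed for the open chromatin of pluripotent cells, differed by less but with tighter values. It stood at 1.45, 1.39, 1.41 and 1.47 in HC3 pools, against 1.11, 1.25, 1.14 and 1.04 in HC5 pools. The groups did not overlap, and the difference was 0.29 ± 0.09 log2 (SE). Aebp2, a cofactor of the repressive Polycomb complex PRC2, stood at 1.31, 1.42, 1.58 and 1.54 in HC3 pools, against 1.07, 1.26, 1.09 and 0.51 in HC5 pools. The groups did not overlap, though without HC5 replicate 4 the Aebp2 difference was 0.32 log2 in place of 0.48. Stx17, a SNARE protein of autophagosome fusion, stood at -0.40, -0.29, -0.66 and -0.71 in HC3 pools, against -1.27, -0.92, -1.04 and -1.08 in HC5 pools. Every HC3 value was the higher, with a difference of 0.56 ± 0.17 log2 (SE), though the second Stx17 probe differed by only 0.14. Stx17 was also among the genes that differed between slide rows (adjusted p = 0.0158, limma), and its HC3 minus HC5 difference was 0.63 within row 1 and 0.49 within row 2. Aebp2 differed by 0.19 within row 1 and by 0.77 within row 2.

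Of the rest of these 12, Slu7, a splicing factor, had a difference of 0.65 log2 and Bivm one of 0.42, both without overlap. Specc1l, a cytoskeletal gene, differed by 0.45, and HC3 replicate 3 alone stood at 0.0016 against -0.66 to -0.58 in the other HC3 pools. Without that pool the Specc1l difference was 0.29, and it was 0.20 within row 1 and 0.69 within row 2. Ammecr1 differed by 0.38 without overlap, by 0.14 within row 1 and by 0.62 within row 2. The second probes of Slu7, Ammecr1 and Specc1l differed by 0.04, 0.06 and 0.13 only. The small nucleolar RNA Snord17 differed by 0.67 with overlap, and by 0.42 without HC5 replicate 4. Ankrd24 differed by 0.36 with overlap, by 0.64 within row 1 and by 0.09 within row 2. For 2 of the 12 the probes of the gene disagree in direction. Gigyf1 (0.22) and Appl1 (0.32), an endosomal adaptor, differed by -0.07 and -0.10 with the mean of the kept probes.

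Klhl1, an actin-binding kelch gene best known from neurons, had the smallest p of all genes tested. It stood at -2.87, -1.66, -1.87 and -2.48 in HC3 pools, against -0.90, -1.50, -1.65 and -1.07 in HC5 pools. All HC3 pools lay below all HC5 pools, HC3 replicate 2 and HC5 replicate 3 being almost equal, and the difference was -0.94 ± 0.22 log2 (SE, limma, unadjusted p = 0.00038). It was -0.69 within slide row 1, -1.19 within slide row 2 and -0.87 without HC5 replicate 4. The 16 other pools lay between -2.37 and -1.61. The Klhl1 probe lies on chromosome 14 from 96505534 to 96505593 (mm9).

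The cholesterol synthesis enzymes Mvd and Cyp51 were among the 12 genes of smallest p with a lower mean in HC3, and they are described with their pathway. Dbnl, an actin-binding adaptor, stood at 0.46, 0.51, 0.50 and 0.46 in HC3 pools, against 0.69, 0.75, 0.87 and 1.096 in HC5 pools. The HC3 values were close together and all below those of HC5, with a difference of -0.37 ± 0.12 log2 (SE). Zfp160, a zinc finger gene, stood at -0.17, -0.23, -0.71 and -0.79 in HC3 pools, against -0.34, 1.49, 1.39 and -0.42 in HC5 pools. Only HC5 replicates 2 and 3 were high, the 16 other pools lay between -0.70 and 0.14, and the difference of -1.004 log2 was 0.17 within slide 1, where HC5 replicate 1 is. The second Zfp160 probe differed by -0.22. Within slide row 1, which holds both high pools and no other HC5 pool, Zfp160 passed (difference -1.64, limma adjusted p = 0.00304). It also differed between the slide rows over all conditions (limma adjusted p = 0.0238). Adss, an enzyme of AMP synthesis (-0.42), and Heatr5b (-0.46) did not overlap, but their second probe ran the other way. Tmub2 (-0.46), Cops7b (-0.64), Gatad2a (-0.28), a subunit of the NuRD repressor complex, and Ticam1 (-0.47), a Toll-like receptor adaptor, overlapped. Without HC5 replicate 4 these 4 differences were -0.27, -0.43, -0.19 and -0.34.

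**Figure D2:**
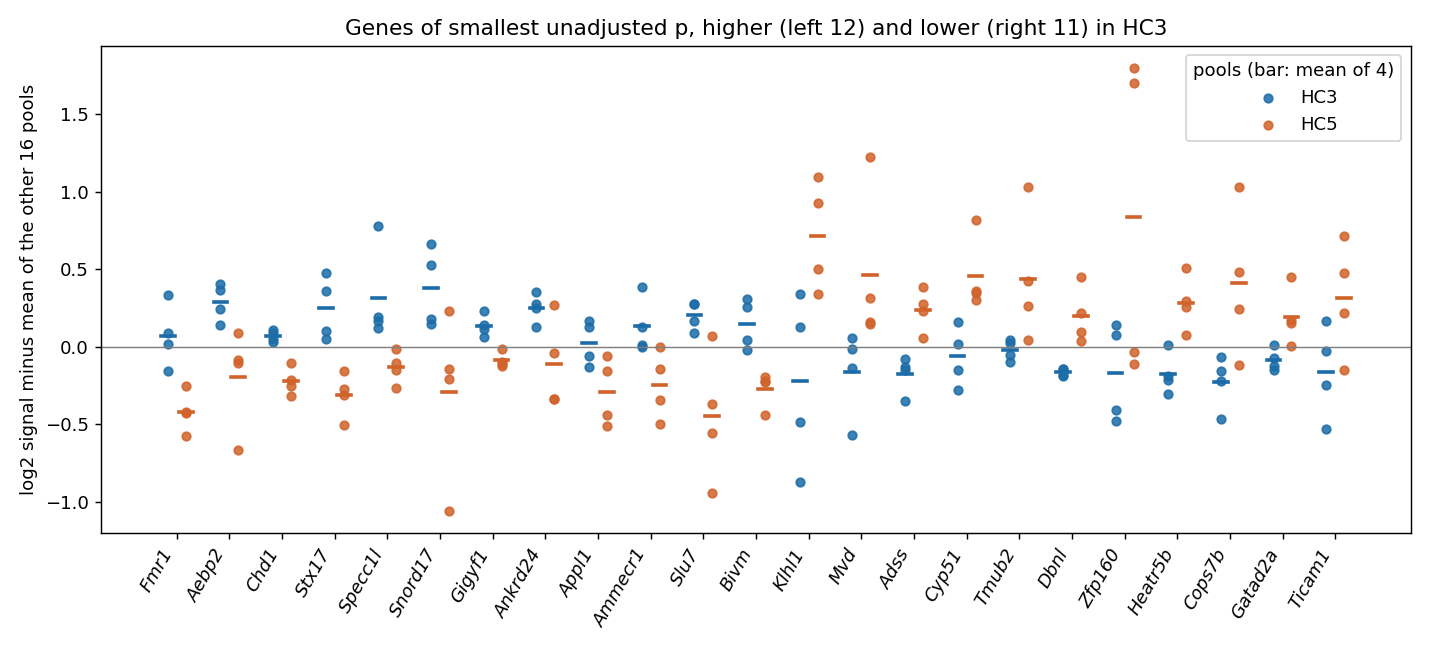
Normalised log2 signal minus the mean of the 16 other pools (y axis) for 23 of the 24 genes of smallest p (x axis, the 12 higher in HC3 on the left, 11 of the 12 lower ones on the right), with 1 point per pool and a bar at the mean of 4, HC3 in blue left of HC5 in orange. The 2 HC5 pools high in Zfp160 stand out, and in 18 of the 23 genes the HC5 mean lies farther from 0 than the HC3 mean.

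Genes of cholesterol synthesis were lower in HC3 than in HC5, a pattern of means in which no single gene passed. The list was chosen with earlier results of these data known. Its genes are known to be switched on together, so they are not separate observations. Of the 20 genes listed, 19 were found on the array and tested, all well above background on all 8 arrays, and 19 of 19 had a lower mean in HC3. Over all genes tested, 47.5% had a lower mean in HC3, and 49.1% of those well above background on all 8 arrays. The median difference of the 19 was -0.26 log2, beside a median of 0.01 over all genes. At an unadjusted p under 0.05, 8 of 19 were lower in HC3, where 1.28% of all genes were (1.09% of those well above background on all 8 arrays). In 5 of 19 all HC3 values lay below all HC5 values, beside 0.554% of those genes. None of the 19 passed over all genes (smallest adjusted p = 1.00, limma).

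The promoters of Mvd, Cyp51, Msmo1 and Hmgcs1 are printed because the first 3 are among the 8 members with an unadjusted p under 0.05, and Hmgcs1 holds the only sterol-type match. The sequences are from RefSeq on GRCm38.p6, the 250 bases before the annotated start, 5′ to 3′ on the strand of the gene. Capitals mark CCAAT on either strand (ATTGG on the opposite one) and, in Hmgcs1, TCACNCCAC, a form of the sterol regulatory element. The Mvd window is chr8:122443423-122443672 on the minus strand, that of Cyp51 chr5:4104698-4104947 on the minus strand, that of Msmo1 chr8:64733579-64733828 on the minus strand and that of Hmgcs1 chr13:119690101-119690350 on the plus strand.
Mvd: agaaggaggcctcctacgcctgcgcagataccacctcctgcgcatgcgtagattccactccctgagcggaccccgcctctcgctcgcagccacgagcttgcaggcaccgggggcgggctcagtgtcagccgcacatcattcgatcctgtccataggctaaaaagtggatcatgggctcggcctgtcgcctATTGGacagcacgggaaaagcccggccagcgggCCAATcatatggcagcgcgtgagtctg
Cyp51: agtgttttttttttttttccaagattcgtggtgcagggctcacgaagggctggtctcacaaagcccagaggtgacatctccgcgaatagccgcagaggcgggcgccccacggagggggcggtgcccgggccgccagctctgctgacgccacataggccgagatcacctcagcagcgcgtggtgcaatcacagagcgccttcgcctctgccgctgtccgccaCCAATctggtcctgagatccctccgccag
Msmo1: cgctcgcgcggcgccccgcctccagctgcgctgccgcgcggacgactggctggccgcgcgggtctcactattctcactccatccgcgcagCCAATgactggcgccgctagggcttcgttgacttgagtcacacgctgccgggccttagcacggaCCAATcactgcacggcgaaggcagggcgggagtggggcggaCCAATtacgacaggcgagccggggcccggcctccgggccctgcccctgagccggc
Hmgcs1: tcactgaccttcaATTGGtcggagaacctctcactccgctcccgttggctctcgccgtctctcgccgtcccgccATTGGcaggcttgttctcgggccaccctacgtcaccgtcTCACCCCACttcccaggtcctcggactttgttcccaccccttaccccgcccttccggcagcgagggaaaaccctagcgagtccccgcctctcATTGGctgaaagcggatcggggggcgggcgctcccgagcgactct
Of the 19 members, 14 had an entry in the promoter table, and all 14 held CCAAT in at least 1 of their windows. Of 27025 genes in the table, 37.5% did. The letters TCACNCCAC were in 1 of 14 members and in 1.22% of all genes. The motifs did not overlap in these windows. These matches describe letters, not binding.

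Among the first, mevalonate-forming steps, Hmgcs1, HMG-CoA synthase, stood at 3.35, 3.81, 3.37 and 3.63 in HC3 pools, against 3.38, 3.48, 3.92 and 3.75 in HC5 pools. The groups overlapped widely, with a difference of -0.09 log2 and a 95% interval of -0.46 to 0.27. Without HC5 replicate 3 it was 0.0035.

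The enzymes that turn mevalonate into isoprenoid units differed more. Mvk, mevalonate kinase, stood at 4.44, 4.47, 4.45 and 4.36 in HC3 pools, against 4.68, 4.80, 4.73 and 4.55 in HC5 pools. Every HC3 pool lay below every HC5 pool, with a difference of -0.26 ± 0.12 log2 (SE, limma, unadjusted p = 0.0493). Mvk also differed between the slide rows (limma adjusted p = 0.0309), and its difference was -0.31 within row 1 and -0.21 within row 2. Mvd, mevalonate diphosphate decarboxylase, stood at -0.11, 0.32, 0.44 and 0.51 in HC3 pools, against 0.77, 0.60, 0.62 and 1.68 in HC5 pools. The groups did not overlap, and the Mvd difference of -0.63 ± 0.19 log2 (SE) became -0.37 without HC5 replicate 4, the highest pool. Pmvk, phosphomevalonate kinase, differed by -0.24 and Idi1, the isomerase, by -0.22, both with overlap. Idi1 was at -0.11 without HC5 replicate 3 and 0.08 within row 2. The Mvd probe lies on chromosome 8 from 124957750 to 124957809 (mm9).

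The next 3 enzymes join isoprenoid units into squalene and its epoxide. Fdps, farnesyl diphosphate synthase, stood at 4.40, 4.51, 4.64 and 4.70 in HC3 pools, against 4.62, 4.87, 5.09 and 5.15 in HC5 pools. Fdft1, squalene synthase, stood at 3.34, 3.73, 3.30 and 3.51 in HC3 pools, against 3.66, 3.87, 4.07 and 3.83 in HC5 pools. Both overlapped by 1 HC5 pool, replicate 1, and differed by -0.37 ± 0.15 and -0.39 ± 0.18 log2 (SE). Sqle, squalene epoxidase, stood at 4.31, 4.14, 4.36 and 4.41 in HC3 pools, against 4.57, 4.64, 4.58 and 3.82 in HC5 pools. In Sqle 3 HC5 pools lay above all HC3 pools and replicate 4 below them, so the difference was -0.10 log2 with that pool and -0.29 without it.

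From lanosterol onward the differences varied in size. Lss, lanosterol synthase, stood at 1.61, 1.52, 1.76 and 1.71 in HC3 pools, against 2.12, 2.02, 1.94 and 1.81 in HC5 pools. The groups did not overlap, with a difference of -0.32 ± 0.16 log2 (SE, limma, unadjusted p = 0.0529). Cyp51, the lanosterol demethylase, stood at 1.89, 1.45, 1.75 and 1.57 in HC3 pools, against 2.08, 2.08, 2.03 and 2.55 in HC5 pools. It did not overlap either, and its difference of -0.52 ± 0.16 log2 (SE) was -0.40 without HC5 replicate 4 and -0.38 within slide row 1. The second Cyp51 probe differed by only -0.06. Msmo1, the sterol methyl oxidase, stood at 3.30, 3.32, 3.58 and 3.49 in HC3 pools, against 3.81, 3.77, 4.01 and 3.55 in HC5 pools. Only HC5 replicate 4 fell within the HC3 range, and the difference was -0.36 ± 0.15 log2 (SE). It was -0.58 within row 1, -0.14 within row 2 and -0.01 within positions 2 to 4 of row 2. The other 2 Msmo1 probes disagreed, at -0.57 and 0.34. Nsdhl (-0.33), Tm7sf2 (-0.17), Hsd17b7 (-0.09), Ebp (-0.05) and Sc5d (-0.00064), which act between these enzymes and the end of the pathway, all overlapped. Nsdhl, which also differed between the slide rows (limma adjusted p = 0.00777), was at -0.20 without HC3 replicate 3.

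Near the end of the pathway Dhcr7 was among the 8 members with an unadjusted p under 0.05. Dhcr7, 7-dehydrocholesterol reductase, stood at -0.28, -0.01, -0.12 and -0.27 in HC3 pools, against -0.04, 0.38, 0.16 and 0.39 in HC5 pools. HC5 replicate 1 overlapped the HC3 range, and the difference was -0.39 ± 0.15 log2 (SE).

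**Figure D3:**
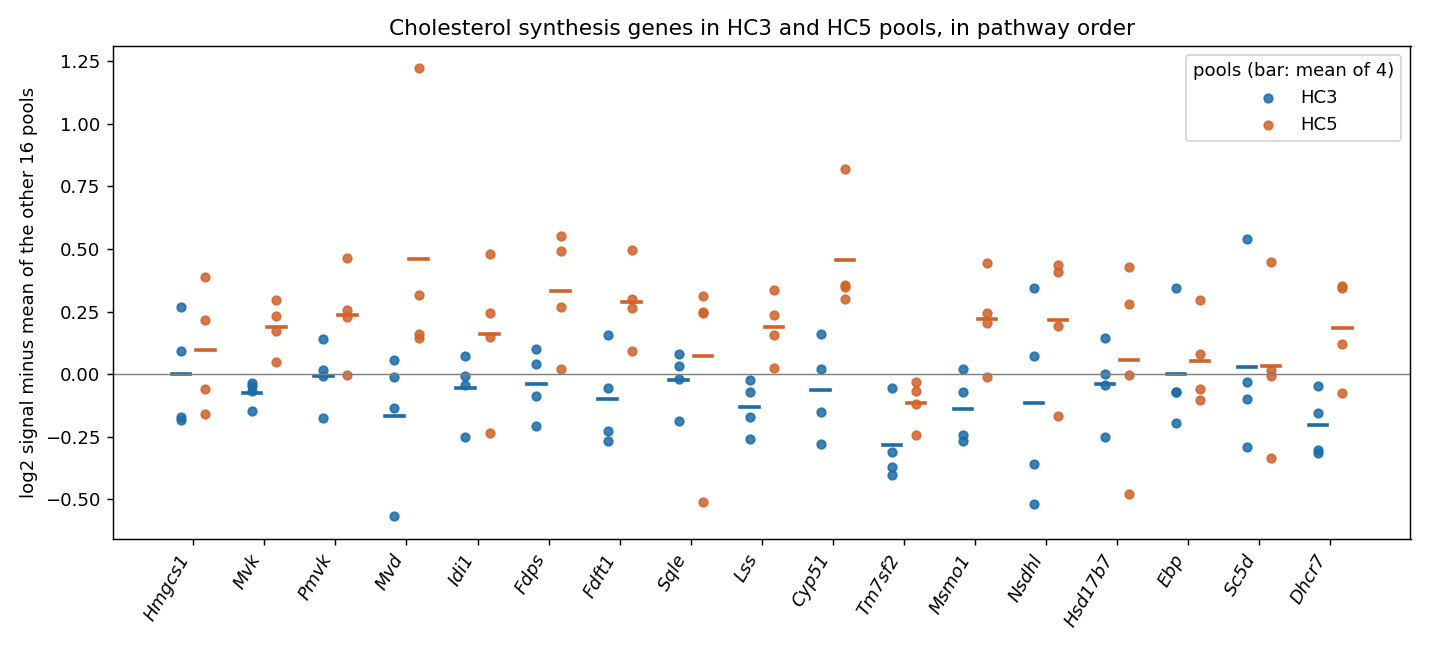
Normalised log2 signal minus the mean of the 16 other pools (y axis) for 17 of the 19 cholesterol synthesis genes in pathway order (x axis), with 1 point per pool and a bar at the mean of 4, HC3 in blue left of HC5 in orange. The HC3 mean is below the HC5 mean in all 17 shown, and HC5 replicate 4 gives the highest Mvd and Cyp51 and the lowest Sqle points.

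In 17 of the 19 genes the HC5 mean lay farther from the mean of the 16 other pools than the HC3 mean, and in 2 the HC3 mean did. The HC5 mean was above that of the other pools in 18 of 19 and the HC3 mean below it in 15 of 19. The mean deviation of the 19 genes from their 24-array means was -0.18, -0.01, -0.11 and -0.06 log2 in HC3 pools, against 0.10, 0.17, 0.30 and 0.10 in HC5 pools. All HC3 values were below all HC5 values, and the 16 other pools spanned -0.31 to 0.22, which covers every value but that of HC5 replicate 3. For Cyp51 the mean was 1.67 in HC3 and 2.18 in HC5, and 1.73 in the 16 other pools. For Tm7sf2 the mean was 0.60 in HC3 and 0.77 in HC5, and 0.89 in the others.

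The median difference of these 19 genes stayed negative in all 34 alternative settings in which it was computed, from -0.38 to -0.15. Each slide held 1 or 2 pools of each code, and the median was -0.25 on slide 1 and -0.29 on each of slides 2 and 3. Its size differed between positions, which held different pools, so position and pool cannot be told apart here. The median was -0.38 within row 1, with 19 of 19 members lower, and -0.21 within row 2, with 14 of 19 lower. With all 8 positions as a block it was -0.20, with 16 of 19 lower and 2 at an unadjusted p under 0.05. With the position zone as a block 17 of 19 were lower, with a median of -0.21, and within the 5 positions outside the zone 18 of 19 were lower, with a median of -0.31. Between slide rows, 3 of 19 members differed (all lower in row 2, adjusted p under 0.05), against 10.8% of all genes. With the array's brightness as a covariate the median was -0.20, with 16 of 19 lower and 3 at an unadjusted p under 0.05. Without HC5 replicate 3, 15 of 19 were lower, and without HC5 replicate 4, 19 of 19.

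**Figure D4:**
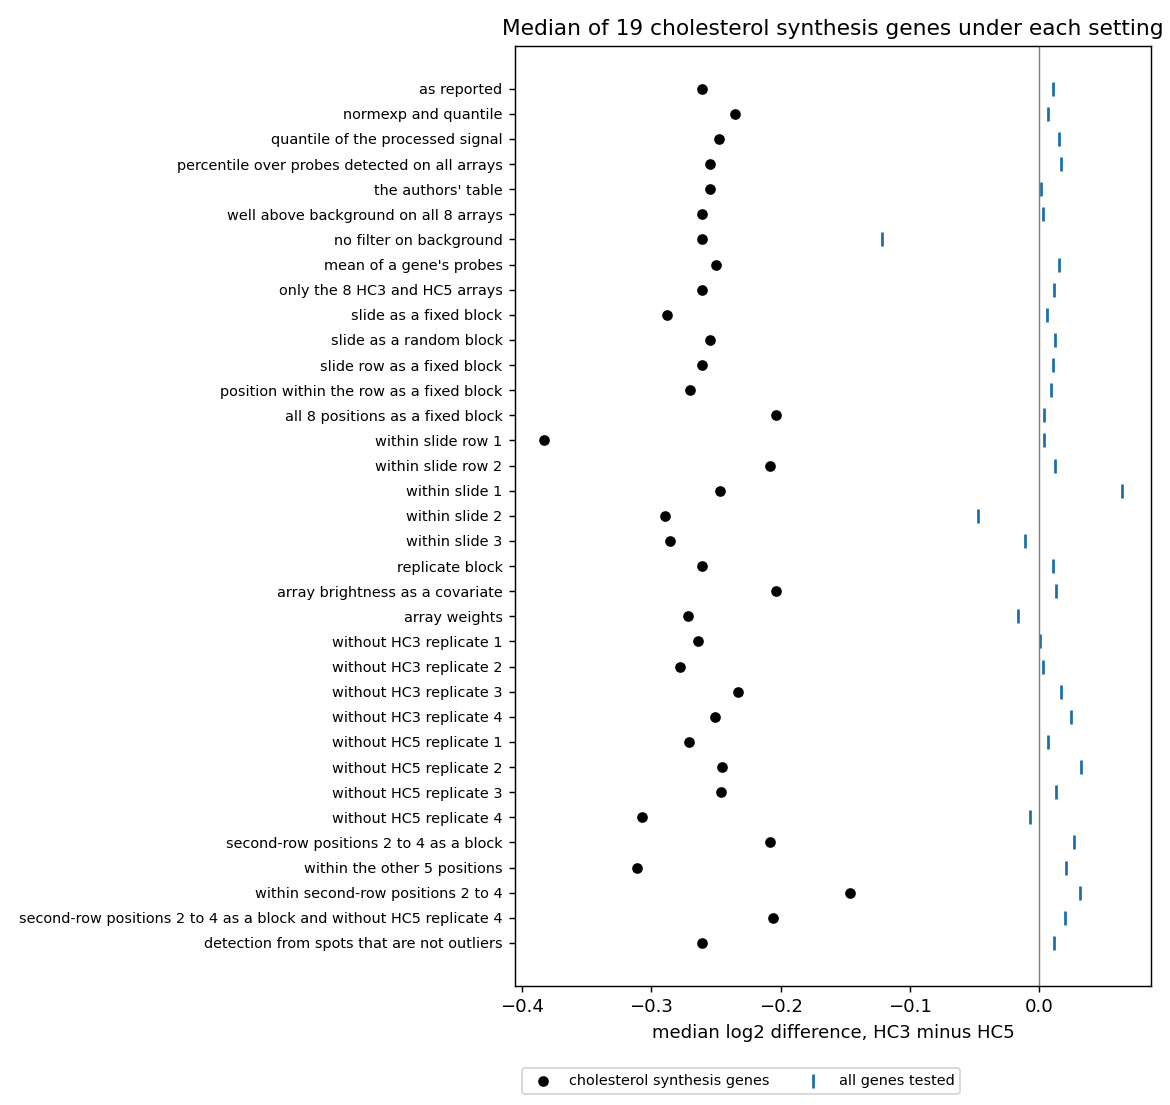
Median HC3 minus HC5 log2 difference (x axis) of the 19 cholesterol synthesis genes (black points) and of all genes tested (blue ticks) under each setting (y axis). The points lie between -0.38 and -0.15 throughout, with the value nearest 0 within positions 2 to 4 of row 2, where HC5 has 1 array.

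Genes that sense or move sterols were split in direction. Of 19 tested, 11 were lower and 8 higher in HC3, with a median of -0.04 log2. Among these 19, 0 had an unadjusted p under 0.05, beside 3.19% of all genes. Insig1, a sterol-dependent brake on SREBP processing, stood at -1.07, -0.87, -0.67 and -0.51 in HC3 pools, against -0.97, -0.12, 0.30 and -0.68 in HC5 pools, with overlap (difference -0.41, and -0.19 without HC5 replicate 3). Of 19 fatty acid synthesis genes, 13 were lower in HC3, with a median of -0.07, and 1 had an unadjusted p under 0.05. That gene was Agpat2, an acyltransferase of phosphatidic acid synthesis, at 5.31, 5.41, 5.25 and 5.40 in HC3 pools, against 5.39, 5.42, 5.55 and 5.79 in HC5 pools. Its difference of -0.20 was -0.11 without HC5 replicate 4. Acly, which makes the acetyl-CoA used by both pathways, was lower in every HC3 pool than in any HC5 pool, with a difference of -0.14 (-0.03 for the second Acly probe).

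Of the estrogen receptors, only Esr2 could be compared. Esr2, estrogen receptor beta, stood at 2.17, 2.06, 1.95 and 2.04 in HC3 pools, against 1.92, 2.14, 2.18 and 1.85 in HC5 pools. The groups overlapped, and the difference of 0.03 log2 had a 95% interval of -0.20 to 0.26. None of the 7 Esr1 probes, for estrogen receptor alpha, and not the 1 probe for Gper1, the G protein-coupled receptor, was well above background on any of the 8 arrays. A signal under background is not an absence of the transcript. Of 15 receptors and coregulators tested, 12 had a higher mean in HC3, with a median of 0.04 log2. Among these 15, 0 had an unadjusted p under 0.05, beside 3.19% of all genes. Ncor1, a corepressor, differed by 0.16, with HC5 replicate 4 at 2.43 against 2.82 to 2.89 in the other HC5 pools, and by 0.05 without that pool. Of 10 estrogen target genes tested, 7 were higher, with a median of 0.04.

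Lineage lists had small median differences, with more genes higher than lower in HC3. Of 20 inner cell mass and epiblast genes 11 were higher in HC3 (median 0.04 log2), and of 19 trophectoderm genes 11 (median 0.05). Of 22 primitive endoderm genes 15 were higher (median 0.11), where 52.5% of all genes were. In each list 0 genes had an unadjusted p under 0.05, beside 3.19% of all genes, so 0 says little in lists of this size. Nanog differed by 0.10, Sox2 by 0.16, Eomes by 0.24, Gata4 by -0.10 and Sox17 by 0.20, all with overlap. Each of these moved with single pools. Without HC5 replicate 4 Nanog was at -0.00069, Sox2 at 0.02, Eomes at 0.03 and Gata4 at 0.01. Without HC5 replicate 3 Sox17 was at 0.0071 and Gata4 at -0.41. The second probes of Nanog and Sox17 ran the other way, at -0.47 and -0.02, and that of Eomes the same way, at 0.34. Gata6 differed by 0.22, by 0.11 without HC5 replicate 4 and by -0.02 on its second probe. The primitive endoderm genes were low in 1 pool, HC5 replicate 3, whose mean deviation over the list was -0.63 log2. In the other 3 HC5 pools it was between -0.14 and 0.42, and in the HC3 pools between -0.17 and 0.33. All 14 tested genes of the FGF pathway, which drives primitive endoderm, had a higher mean in HC3, beside 52.5% of all genes, with a median of 0.09 and 0 at an unadjusted p under 0.05. Their mean deviation was 0.08, -0.10, 0.08 and 0.12 in HC3 pools, against 0.19, 0.01, -0.35 and -0.14 in HC5 pools, so HC5 replicates 3 and 4 were low and replicate 1 high.

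Among the genes of cavity formation, 10 of 21 were higher and 11 lower in HC3. Aqp8, a water channel, was the 1 member with an unadjusted p under 0.05, at 3.15, 3.20, 3.12 and 3.28 in HC3 pools, against 3.40, 2.85, 2.13 and 2.55 in HC5 pools. HC5 replicate 1 lay above all HC3 pools and the other 3 below them, and the difference of 0.46 was -0.25 within slide 1 and 0.26 without HC5 replicate 3. Interferon response genes were dim, with 7 of 10 tested higher in HC3 (median 0.34) and 4 of the 10 well above background on all 8 arrays (median 0.06). Irf1, an interferon-regulated transcription factor, stood at -1.11, -1.46, -0.92 and -1.30 in HC3 pools, against -1.34, -1.51, -3.02 and -2.45 in HC5 pools. Its 2 low values were those of HC5 replicates 3 and 4, the dimmest arrays of HC5, and it was well above background on 2 of the 4 HC5 arrays.

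The sex-linked genes overlapped between the groups. Xist, the RNA of X inactivation, stood at -0.17, 0.79, 0.54 and 0.86 in HC3 pools, against 0.36, 0.17, 0.69 and -0.92 in HC5 pools. Eif2s3y, a Y-linked translation factor, stood at 1.30, 0.51, 0.94 and 0.04 in HC3 pools, against 0.48, 1.16, 1.03 and 0.57 in HC5 pools. Markers of other cells were mostly dim or not measured. Of the cumulus and granulosa list 5 of 18 genes were tested, of fibroblasts 4 of 10, of blood and immune cells 5 of 9 on the array and of sperm 3 of 8. In those 4 lists 0 genes had an unadjusted p under 0.05, beside 3.19% of all genes, so 0 says little in lists this small. Foxl2, a granulosa factor, was well above background in all 8 pools, at 4.37, 4.57, 5.06 and 5.07 in HC3 pools, against 4.27, 4.32, 4.76 and 5.40 in HC5 pools. Their part in the results was not tested.

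Over the remaining stress, metabolic and growth lists, the median differences were near that of all genes. Cell cycle genes had a median of 0.03 log2 over 29 genes, ribosomal protein genes -0.02 over 27 and oxidative phosphorylation genes -0.02 over 28. Heat shock genes stood at 0.03 over 15, p53 pathway genes at 0.07 over 16, NRF2 and antioxidant genes at -0.02 over 18 and unfolded protein response genes at -0.06 over 20. Imprinted genes stood at 0.03 over 18 and DNA methylation genes at 0.02 over 15. None of these had a member with an unadjusted p under 0.05, beside 3.19% of all genes, so this says little in lists of this size. Genes of the 2-cell stage had the lowest median, -0.35 over 11 tested genes, of which 2 were well above background on all 8 arrays.

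**Figure D5:**
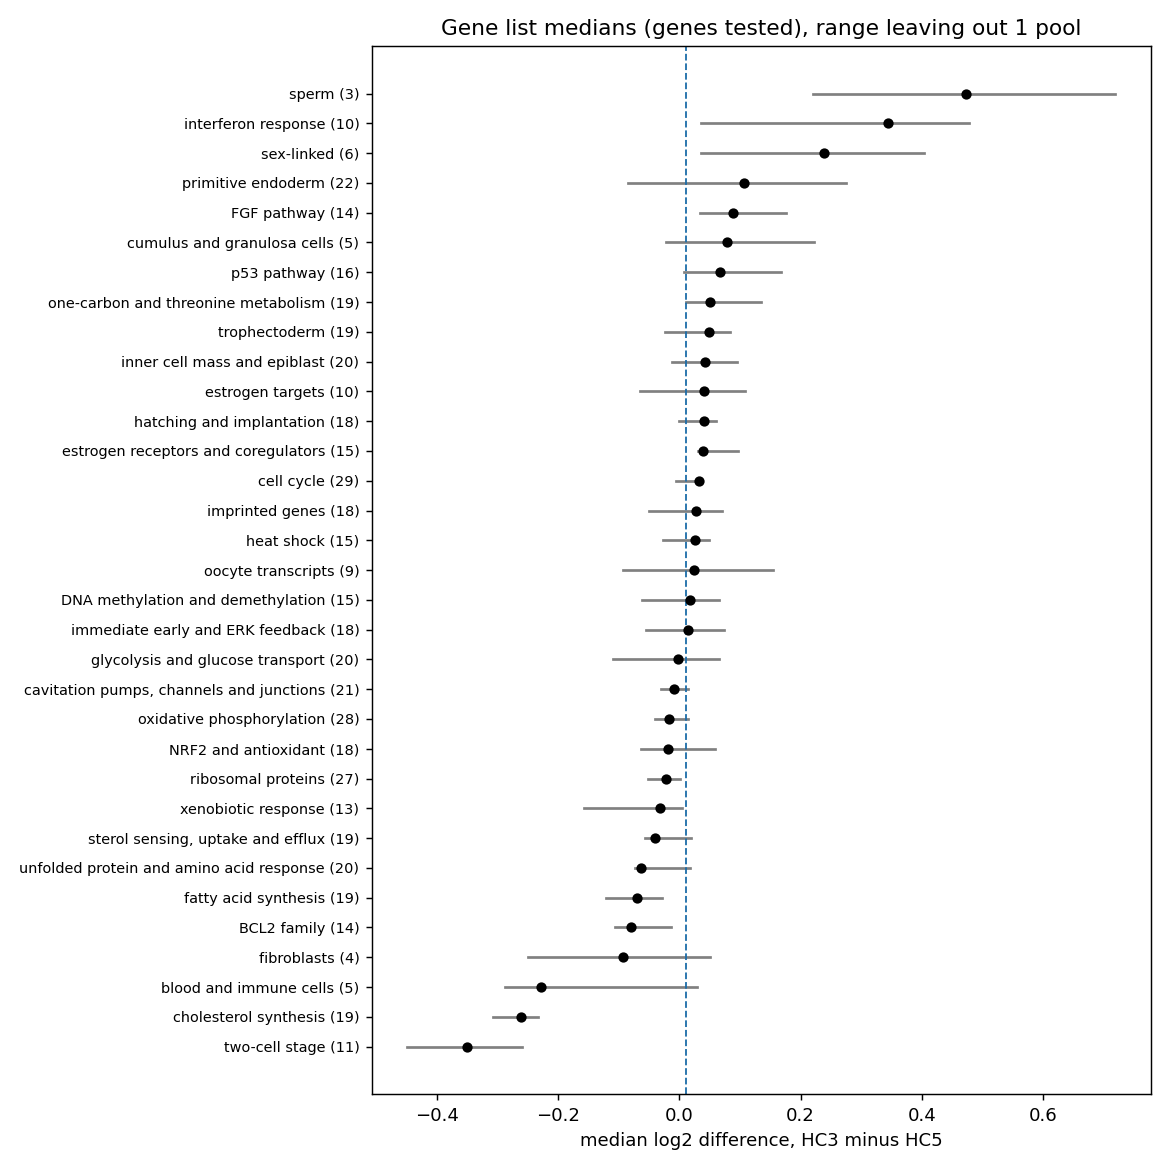
Median HC3 minus HC5 log2 difference (x axis) of each of 33 gene lists (y axis, number of genes tested in brackets), with the range obtained by leaving out each of the 8 pools in turn as a grey line and the median of all genes as a dashed line. The cholesterol synthesis line runs from -0.31 to -0.23, and those of the sperm, interferon, sex-linked and blood lists, with 3 to 10 genes each, are much wider.

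Genes near background were detected more often in HC3. Features well above background on at least 3 of 4 HC3 arrays and on 0 of 4 HC5 arrays numbered 211 (1.14% of those tested), against 5 (0.0271%) the other way. The array-wide share of detected spots was also higher in HC3, as given above, and its part in these counts was not tested. A fold is given for them as a lower limit, the mean of the bright group over that of the dim group raised, array by array, to at least the lowest signal of a spot that is well above background and no outlier. P4htm, an endoplasmic reticulum prolyl hydroxylase, stood at -2.41, -3.82, 1.07 and -2.44 in HC3 pools, against -4.51, -4.11, -4.16 and -4.22 in HC5 pools, and was at least 1.79-fold higher in HC3. HC3 replicate 3 was far above the other HC3 pools, and without it no fold above 1 remained. Without HC3 replicate 2 the limit was 2.79-fold. P4htm was well above background on 3 HC3 arrays and on 2 arrays of the other codes. It therefore passed the detection filter of 4 arrays only through HC3, the group where it was high. Zfp647 was at least 1.45-fold and Mfsd6 at least 1.26-fold higher in HC3, both with overlapping values, while Parp9 and Ro60 gave no fold above 1 by this measure with all pools.

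Of the 5 features detected in HC5 and not in HC3, Syt10, a synaptotagmin, stood at -3.46, -3.73, -3.81 and -4.25 in HC3 pools, against -3.39, -2.12, -0.24 and 0.13 in HC5 pools. It was at least 3.44-fold lower in HC3, and HC5 replicates 3 and 4 were far above the other HC5 pools. Leaving out 1 HC5 pool moved that limit between 2.41-fold, without replicate 4, and 5.45-fold, without replicate 1. Syt10 was well above background on 3 HC5 arrays and on 1 array of the other codes. It therefore passed the detection filter of 4 arrays only through HC5, the group where it was high. Gc, which encodes the vitamin D binding protein, stood at -4.00, -4.25, -5.34 and -5.29 in HC3 pools, against -1.72, -2.11, -2.92 and -1.46 in HC5 pools. The groups did not overlap, and Gc was at least 2.2-fold lower in HC3. Gc was chosen as detected in HC5 and not in HC3, which by itself favours groups that do not overlap. In the 16 other pools Gc spanned -5.88 to -1.27, a wider range than either group. Abcb1a, a drug efflux pump, was at least 2.32-fold lower in HC3, but its highest pool was HC5 replicate 4 at 0.85 and the other HC5 pools lay between -3.44 and -2.52. Without that pool the limit was 1.22-fold. Ajap1 was at least 1.74-fold lower with overlap (1.33-fold without HC5 replicate 4), and Kif1a gave no fold above 1. With 3 HC5 arrays and 2 arrays of the other codes well above background, Ajap1 also passed the detection filter only through HC5. Kif1a is measured by 10 spots, and on no HC5 array were most of those that are not outliers well above background.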

How the data were processed

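Pools were grouped by the code in their titles. The scanner files deposited by the authors give an intensity per spot, which the authors made with Feature Extraction 10.10.1.1 (version per the submitters' processing notes). Background had been subtracted in the column used, with no normalisation between arrays, per the file headers. The authors' deposited table of log2 values (27101 probes) was used as an alternative; its exact normalisation is not given in the sources used here. The submitters' processing notes also name limma.

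Control and outlier spots were left out, though the 75th percentile was taken over all spots that are not controls and subtracted from each array's log2 processed signal. A probe was kept if 4 or more of the 24 arrays had it well above background (27155 probes; a probe with several spots, as 300 have, counted as detected if any spot was), and the brightest probe stood for a gene, giving 18457 features, 4261 of them without a current symbol. One limma 3.58.1 model (R 4.3.3) with 6 condition means was fitted to the 24 arrays with Benjamini-Hochberg adjustment at 0.05. The code was tested on simulated arrays; with no gene changed it called 0 genes, and with 50 genes changed at each of 4 fold sizes it also called 8 unchanged genes of 18150. The number of arrays limits the precision. Saturation was recorded on 0 spots.

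Named genes are the 12 of smallest p per direction among genes detected on all 8 arrays, up to 5 per direction detected in 1 condition only, up to 4 members of smallest p of a described list, the cholesterol synthesis genes, and a fixed set of estrogen receptor, lineage and sex-linked genes. Unnamed features and near-identical families were only counted, and 3 genes that the rule names are not reported here by name. The comparison, gene lists and rules were chosen with earlier results of these data known. Alternatives covered normalisation, filters, probe choice, slide, row, position, brightness, array weights and each left-out pool. Probe coordinates are on mm9, per the file headers, and promoter coordinates on GRCm38.p6.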

Additional observations from a re-analysis of the deposited data

Results flagged for a closer look

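In 26 of 436 groups of 4 values examined (5.96%, where chance gives about 5%), 1 pool lay far from the other 3. HC5 replicate 4, the dimmest array, gave 13 of them. It was high for Mvd (1.68), Cyp51 (2.55), Bok (4.71), Gpx4 (6.04) and Rps18 (10.39), and low for Cdt1 (4.80), Sqle (3.82), Bivm (-1.22), Ncor1 (2.43), Dnajb1 (3.92), Mest (-4.35), Ptpn11 (3.70) and the heat shock mean deviation (-0.30). HC5 replicate 1 was high for Npc2 (4.51). HC5 replicate 3 was low for Il6st (-2.25) and for the BCL2 family mean deviation (-0.17).

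In HC3, replicate 3 was high for Specc1l (0.0016) and Sox17 (1.18) and low for the estrogen target mean deviation (-0.17). Replicate 1 was high for Med1 (2.12) and the unfolded protein response mean deviation (0.17) and low for Nlrp5 (-1.81). Replicate 2 was low for Ccnd1 (-2.27). Replicate 4 was high for Spp1 (3.13) and low for Krt8 (7.92) and Tnp2 (-5.01).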

How the results depend on the processing

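The count of called genes was 0 in every setting except the within-row and within-slide fits, with 1 gene in row 1, 2 in row 2, 3 in slide 1, 0 in slide 2 and 1 in slide 3, and the fit within positions 2 to 4 of row 2, with 1527. That last fit, chosen after seeing the data, sets 2 HC3 pools against HC5 replicate 4 alone, which is assumed to vary like the other arrays. It called 3 of the 19 cholesterol synthesis genes, Mvd (-1.20), Cyp51 (-0.89) and, in the other direction, Sqle (0.57), and gave 4577 genes at an unadjusted p under 0.05. With the position zone as a block, also chosen after seeing the data, that count was 1452, in place of 589, and 684 without HC5 replicate 4 as well. It was 359 among genes detected on all 8 arrays, 2097 with no filter, 1732 within row 2 and 306 within slide 2. Leaving out 1 pool gave 435 to 958 (905, 958 and 928 without HC5 replicates 1, 2 and 3). Among 42 genes that were of smallest p, detected in 1 condition only or at an unadjusted p under 0.05, direction turned for Gigyf1 (-0.0687) and Appl1 (-0.103) with the mean of probes, for Kif1a (0.0945) after quantile normalisation, and within slide 1 for Tmub2 (0.00196), Zfp160 (0.171), Gatad2a (0.00566), Abcb1a (0.207) and Aqp8 (-0.250). Of the 141 other genes examined, 112 turned in at least 1 alternative. They include 9 of the 19 cholesterol synthesis genes, among them Sc5d (16 alternatives), Ebp (8), Hmgcs1 (5), Sqle (3), Hsd17b7 (3), Idi1 (2), Pmvk (1) and Tm7sf2 (1), and also Esr2 (10), Nanog (6), Pou5f1 (5), Gata4 (5), Sox2 (3), Eomes (2), Cdx2 (2), Sox17 (2) and Insig1 (2). The cause was not tested in any of these. Counting a probe as detected only where most of its spots that are not outliers are well above background, also chosen after seeing the data, left 18397 genes, with 587 at an unadjusted p under 0.05, 212 features detected in HC3 only and 4 in HC5 only (18457, 589, 211 and 5 otherwise). With no filter the median of all genes was -0.12.

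Same-numbered HC3 and HC5 pools correlated at 0.14, 0.13, -0.02 and 0.20 in their deviations, so the numbers were not taken as pairs. With a replicate block 0 genes were called and 636 had an unadjusted p under 0.05.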
